A study of Mus musculus with 12 samples.

Results

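Expression of the MAP kinase phosphatases (MKPs) of the dual-specificity phosphatase (DUSP) family was analyzed in hippocampi of mice lacking the transcription factor SRF. The 10 genes were taken as the probe sets that the platform annotation assigns to Dusp1, Dusp2, Dusp4, Dusp5, Dusp6, Dusp7, Dusp8, Dusp9, Dusp10 and Dusp16, out of 19938 genes with a probe set of their own. A total of 11 probe sets matched, and for Dusp8, which had 2, the one with the higher mean over all arrays was used. Total RNA of whole hippocampi was hybridized to Affymetrix Mouse Gene ST arrays, 1 array per mouse and 12 arrays in all, and levels are given on a log2 scale, on which a difference of 1 is a 2-fold change.

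There were 4 groups of 3 adult mice of 7 to 10 weeks. Srf mutants with pilocarpine carried 2 floxed Srf alleles and the Camk2a-driven CreERT2 transgene, were injected with the muscarinic agonist pilocarpine (335 or 350 mg/kg, without a dose per animal) and had seizures but no status epilepticus (SE). Srf mutant controls had the same genotype and no pilocarpine. Heterozygous mice with SE carried 1 floxed and 1 intact Srf allele with the same Cre, received pilocarpine and were killed after 40 min of SE, and heterozygous controls had that genotype and no pilocarpine. By the study's methods, the cholinergic antagonist methyl scopolamine was given before pilocarpine, and littermate controls received Ringer solution. Whether controls also had methyl scopolamine is not stated there, so its part cannot be told apart from that of pilocarpine. Tamoxifen, which activates the Cre, was given to all mice, so that each heterozygous mouse had also lost an Srf allele. The Camk2a promoter restricts deletion to excitatory forebrain neurons, so other hippocampal cells kept Srf. In GEO's labels the heterozygous animals appear as wild type or control and the mutants with pilocarpine as seizing, whereas the genotype and the absence of SE are taken from the study's methods and text. When the mutants without SE were killed is not given in the sources used here. Mutants that reached SE were not analysed here.

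Mitogen-activated protein kinases (MAP kinases) such as ERK, JNK and p38 are switched on by phosphorylation of a threonine and a tyrosine in their activation loop. MKPs remove both phosphates and thereby switch the kinase off, and several MKP genes are themselves transcribed in response to MAP kinase signaling, which closes a negative feedback loop. In neurons, calcium influx and ERK signaling during firing reach the nucleus through CREB, which binds cAMP response elements (CREs), and through SRF with its ternary complex factor partners, which bind CArG boxes. Dusp1, Dusp2, Dusp4 and Dusp5 encode nuclear, inducible phosphatases. Dusp6, Dusp7 and Dusp9 encode cytoplasmic phosphatases that prefer ERK, and Dusp8, Dusp10 and Dusp16 encode phosphatases that prefer JNK and p38.

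The sequences before the gene starts are shown for 3 members that were higher after SE and for Dusp8, which was not called, because they differ in the letters that SRF and CREB are known to bind. RefSeq windows of GRCm38.p6 (250 bases before to 50 bases after the start) were found for 8 of 10 members, all except Dusp4 and Dusp9. Searched on both strands were the CArG box, the CRE TGACGTCA, its short form TGACG (not counted inside a full CRE), the EGR motifs GCGTGGGCG and GCGGGGGCG, the ETS motif CCGGAA and the AP-1 motifs TGAGTCA and TGACTCA. Capitals mark matches on either strand, and each sequence is written 5′ to 3′ on the strand of its gene.

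Dusp5, chr19:53528895-53529144, plus strand, 250 bases before the start: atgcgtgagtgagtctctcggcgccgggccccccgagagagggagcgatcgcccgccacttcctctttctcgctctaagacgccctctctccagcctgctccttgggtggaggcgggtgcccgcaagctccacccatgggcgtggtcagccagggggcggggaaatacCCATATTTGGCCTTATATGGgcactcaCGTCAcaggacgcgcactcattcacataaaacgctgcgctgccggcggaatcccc

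Dusp1, chr17:26508473-26508722, minus strand, 250 bases before the start: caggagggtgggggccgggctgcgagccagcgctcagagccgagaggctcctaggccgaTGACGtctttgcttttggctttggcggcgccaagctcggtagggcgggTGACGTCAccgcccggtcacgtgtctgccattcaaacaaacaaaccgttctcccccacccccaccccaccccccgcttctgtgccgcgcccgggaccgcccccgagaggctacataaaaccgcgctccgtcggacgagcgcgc

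Dusp6, chr10:99262981-99263230, plus strand, 250 bases before the start: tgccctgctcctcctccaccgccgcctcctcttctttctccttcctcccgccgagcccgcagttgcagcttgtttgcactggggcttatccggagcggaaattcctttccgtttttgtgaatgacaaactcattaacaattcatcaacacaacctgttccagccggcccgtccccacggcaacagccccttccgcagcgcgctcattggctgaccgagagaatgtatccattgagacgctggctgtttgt

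Dusp8, chr7:142095330-142095401, minus strand, bases 117 to 46 before the start: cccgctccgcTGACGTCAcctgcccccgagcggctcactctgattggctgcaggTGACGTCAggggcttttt

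Among the 8 windows, Dusp5 alone contained a CArG box. It held 2 of them back to back, CCATATTTGG from 82 and CCTTATATGG from 72 bases before the start, with a short CRE from 55 bases before it. A CArG box was present in 1.63% of all 32851 RefSeq windows of this length, and 2 or more in 6 windows (0.0183%). A full CRE was found once in Dusp1, 143 bases before the start, and at 2 places in Dusp8, 107 and 63 bases before it, against 1.79% of all windows. The short CRE, present in 19.5% of all windows, was found in Dusp1, Dusp2, Dusp5 and Dusp16. Dusp2 held an EGR motif (3.47% of all windows). No ETS or AP-1 motif was found in the 8 windows (14.9% and 5.2% of all windows), and Dusp6, Dusp7 and Dusp10 had none of the motifs searched. These are matches of letters within a short window, not measured binding sites. In the study's chromatin immunoprecipitation, which measures binding, SRF was found at promoter regions of both Dusp5 and Dusp6. A window without a match therefore does not mean that SRF is absent from the promoter.

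**Figure D1:**
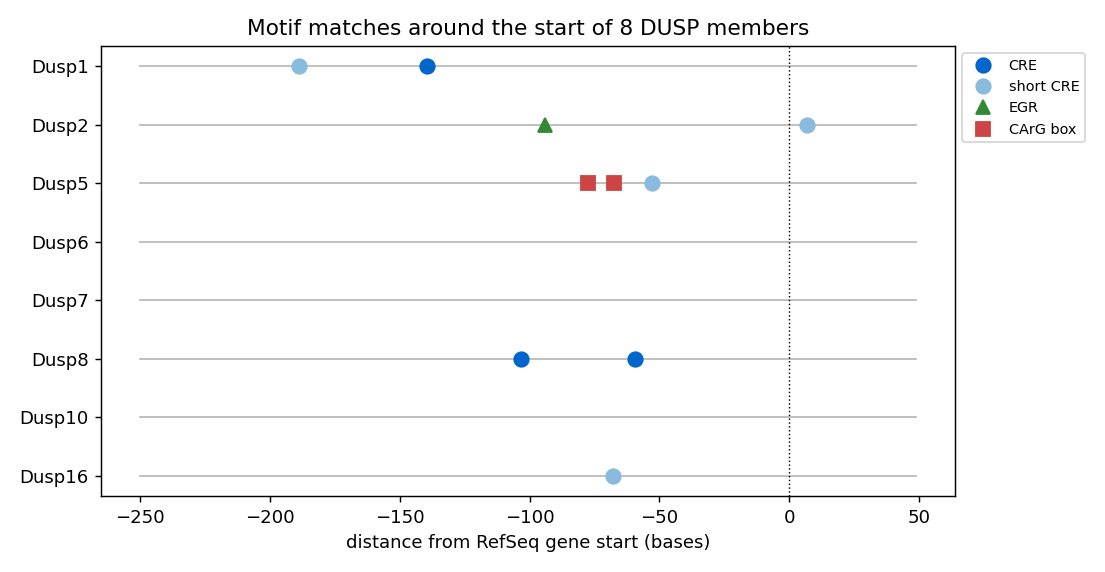
Positions of motif matches (symbols) in the 300-base RefSeq windows (grey lines) of 8 DUSP genes, with distance from the gene start in bases on the x axis. Dusp5 has 2 adjacent CArG boxes and Dusp8 has 2 full CREs, while Dusp6, Dusp7 and Dusp10 have no match.

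Srf itself lay between 8.83 and 8.90 in mutants with pilocarpine and between 8.80 and 8.96 in mutant controls, against 10.16 to 10.27 in heterozygous mice with SE and 9.53 to 9.60 in heterozygous controls. Thus, all mutant arrays were below all heterozygous arrays. The sexes were unevenly spread, with Xist above a level of 9 on 1 of 3 arrays of mutants with pilocarpine, 2 of 3 of mutant controls, 0 of 3 of heterozygous mice with SE and 1 of 3 of heterozygous controls. Neuronal marker genes (Snap25, Syt1 and Rbfox3) were well detected, with mean levels of 12.95 to 13.06 over the 12 arrays. Of the members, 9 lay above the array's median level on every array, and Dusp2 (mean 6.13) lay below it on all 12 arrays. Nothing in the labels ties the replicates to separate litters or days. The p-values set group differences against the spread between these mice within groups.

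In heterozygous mice, 40 min of SE was accompanied by higher levels of 5 of 10 MKP genes and a lower level of 1. Of all 23410 probe sets tested with limma, 5.08% passed an adjusted p of 0.05 upward and 6.93% downward, which is the call used throughout. The 4 members that passed the study's limits (adjusted p under 0.001 and 2-fold) were Dusp1, Dusp4, Dusp5 and Dusp6, compared with 0.636% of all probe sets, and 0 members were lower at these limits (0.0256% of all probe sets). Of the nuclear class, 3 of 4 were higher with a class median of 2.09 (log2 fold change), while the cytoplasmic ERK class had 1 higher, 1 lower and 1 not called (median 0.05) and the JNK/p38 class had 1 of 3 higher (median 0.17). The median over all probe sets was -0.03.

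Dusp1 encodes MKP-1, the prototype of the family, which acts on p38, JNK and ERK. Its level was 13.33, 13.08 and 13.31 in heterozygous mice with SE, against 9.74, 9.58 and 9.90 in heterozygous controls. All arrays with SE lay far above all control arrays, and the log2 fold change was 3.50 (standard error 0.11, 95% confidence interval 3.26 to 3.74, 11.3-fold, adjusted p = 4.59e-10, limma). Dusp5 encodes a nuclear phosphatase specific for ERK. Its level was 11.07, 11.10 and 11.18 with SE, against 8.71, 8.63 and 8.85 in heterozygous controls. The groups were well apart and narrow, and the log2 fold change was 2.39 (standard error 0.079, interval 2.21 to 2.56, 5.23-fold, adjusted p = 8.93e-10, limma). Dusp4 encodes MKP-2, a nuclear phosphatase close to MKP-1. It reached 10.05, 10.31 and 10.35 with SE, against 8.33, 8.48 and 8.55 in heterozygous controls. These groups did not overlap either, and the log2 fold change was 1.78 (standard error 0.12, interval 1.53 to 2.04, 3.45-fold, adjusted p = 6.01e-07, limma). Dusp2 (PAC-1, known from activated immune cells) was dim and its groups overlapped, with 6.16 ± 0.073 with SE and 6.17 ± 0.091 in heterozygous controls (SD, n = 3 each). Its log2 fold change of -0.01 had an interval of -0.16 to 0.15.

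The cytoplasmic ERK phosphatases diverged. Dusp6 encodes MKP-3, which holds ERK in the cytoplasm and dephosphorylates it. Its level was 12.69, 12.67 and 12.71 in heterozygous mice with SE, against 10.35, 10.54 and 10.70 in heterozygous controls. The arrays with SE were nearly identical and above all control arrays, and the log2 fold change was 2.16 (standard error 0.10, interval 1.94 to 2.38, 4.47-fold, adjusted p = 2.15e-08, limma). Dusp7, a close relative of Dusp6, moved the other way, with a mean of 11.96 ± 0.033 (SD, n = 3) and its lower arrays at 11.94 and 11.95 with SE, against 12.27, 12.27 and 12.30 in heterozygous controls. Every array with SE was below every control array. The log2 fold change of Dusp7, the member called lower, was -0.32 (standard error 0.047, 0.802-fold, adjusted p = 0.000626, limma). Dusp9 (MKP-4) overlapped between groups, with 7.37 ± 0.083 with SE and 7.31 ± 0.049 in heterozygous controls (SD, n = 3 each), and a log2 fold change of 0.05 (interval -0.08 to 0.18).

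Of the JNK/p38 phosphatases, Dusp16 (MKP-7) was at 8.41, 8.40 and 8.44 with SE, against 8.13, 8.06 and 8.05 in heterozygous controls. The groups did not overlap, and Dusp16 rose, the log2 fold change being 0.33 (standard error 0.057, 1.26-fold, adjusted p = 0.00176, limma). Dusp10 (MKP-5) was also without overlap, at 8.25, 8.15 and 8.09 with SE, against 8.08, 7.93 and 7.97 in heterozygous controls. Its log2 fold change of 0.17 (interval 0.02 to 0.32) did not pass the test over all probe sets (adjusted p = 0.148, limma). Dusp8, whose window holds 2 CREs, was at 11.38 ± 0.047 with SE and 11.32 ± 0.083 in heterozygous controls (SD, n = 3 each), and its log2 fold change of 0.07 had an interval of -0.05 to 0.18. The second Dusp8 probe set differed by 0.13 (adjusted p = 0.245, limma). In total, 6 members lay above and 1 below without overlap, against 10.6% and 19.8% of all probe sets.

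**Figure D2:**
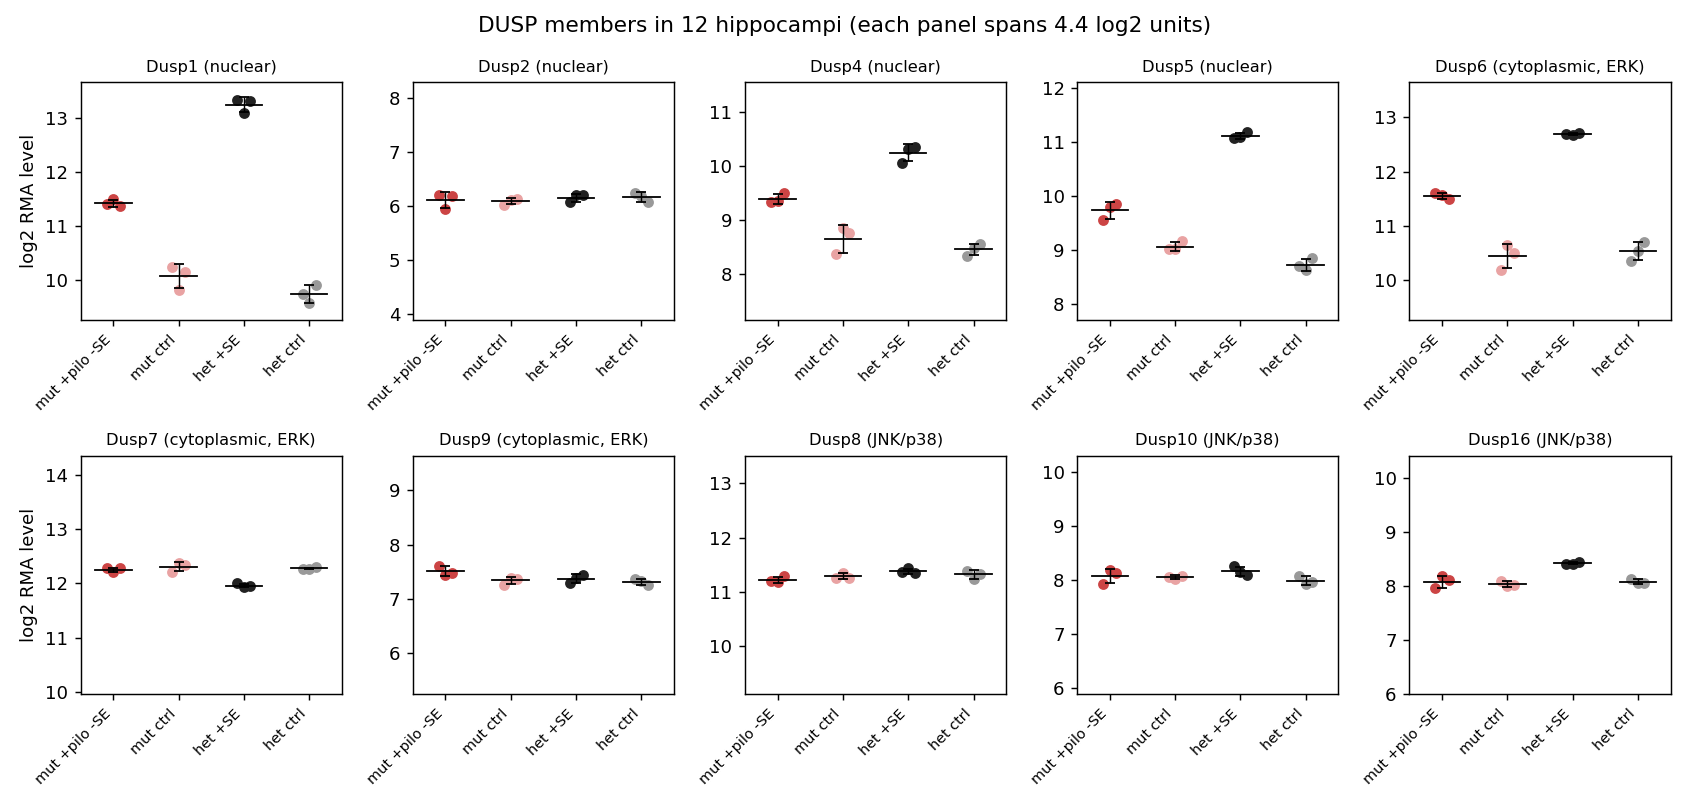
Log2 level (y axis) of each of the 10 genes in 12 hippocampi, with 1 point per mouse, horizontal lines at group means and error bars for SD (n = 3 per group); mut, Srf mutant; het, heterozygous; pilo, pilocarpine; ctrl, control. Dusp1, Dusp4, Dusp5 and Dusp6 are highest in heterozygous mice with SE, with mutants given pilocarpine between them and both control groups, while Dusp7 is lowest in heterozygous mice with SE.

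Next, the response to pilocarpine in Srf mutants, which had no SE, was analyzed. The 4 strongly responding genes were higher here too, and no member was lower, compared with 0.871% higher and 0.965% lower of all probe sets. The nuclear class had 3 of 4 members higher (median log2 fold change 0.70), the cytoplasmic ERK class 1 of 3 (median 0.17) and the JNK/p38 class 0 of 3 (median 0.03; 0 of 3 also at an unadjusted p under 0.05), and the median of all probe sets was 0.00. At the study's limits, 2 members remained, Dusp1 and Dusp6, compared with 0.0726% of all probe sets.

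Dusp1 was at 11.40, 11.50 and 11.37 in mutants with pilocarpine, against 10.25, 9.82 and 10.14 in mutant controls. The pilocarpine arrays were tight and lay above all controls, and the log2 fold change was 1.35 (standard error 0.11, interval 1.12 to 1.59, adjusted p = 4.83e-05, limma). Dusp6 was at 11.60, 11.56 and 11.49 with pilocarpine, against 10.19, 10.64 and 10.50 in mutant controls. Again without overlap, its log2 fold change was 1.11 (standard error 0.10, interval 0.89 to 1.33, adjusted p = 0.000148, limma). Dusp5 was at 9.56, 9.80 and 9.86 with pilocarpine, against 9.02, 9.03 and 9.17 in mutant controls. This was a log2 fold change of 0.67 without overlap (standard error 0.079, interval 0.49 to 0.84, adjusted p = 0.00109, limma). Dusp4 was at 9.32, 9.34 and 9.49 with pilocarpine, against 8.36, 8.85 and 8.75 in mutant controls. The control arrays were more spread and 1 of them was low, but the groups did not overlap (log2 fold change 0.73, standard error 0.12, adjusted p = 0.00835, limma).

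The members that changed modestly in SE showed no called change in mutants. Dusp7 was at 12.25 ± 0.041 with pilocarpine and 12.31 ± 0.080 in mutant controls (SD, n = 3 each), a log2 fold change of -0.06 (adjusted p = 0.643, limma). Dusp16 was at 8.08 ± 0.11 with pilocarpine and 8.03 ± 0.056 in mutant controls, a log2 fold change of 0.05 (adjusted p = 0.747, limma). For Dusp9, all pilocarpine arrays (7.61, 7.44 and 7.48) lay above those of mutant controls (7.26, 7.38 and 7.37), with a log2 fold change of 0.17 that did not pass (adjusted p = 0.187, limma). Without overlap, 5 members lay above and 0 below, against 7.04% and 11.4% of all probe sets. Dusp2, Dusp8 and Dusp10 overlapped between groups, with log2 fold changes of 0.02, -0.07 and 0.03.

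Without pilocarpine, 0 of 10 members were called between mutant and heterozygous controls, compared with 0.0384% of all probe sets higher and 0.0812% lower, and 2 members had an unadjusted p under 0.05 in limma, as had 2043 of all 23410 probe sets. These were Dusp5 and Dusp1. The Dusp5 arrays of mutant controls (9.02, 9.03 and 9.17) all lay above those of heterozygous controls (8.71, 8.63 and 8.85). It was the member without overlap (6.1% of all probe sets lay above in this way and 7.46% below), with a log2 fold change of 0.34 (interval 0.17 to 0.52, adjusted p = 0.26, limma). Dusp1 averaged 10.07 ± 0.22 in mutant controls and 9.74 ± 0.16 in heterozygous controls (SD, n = 3 each), with 1 mutant array inside the heterozygous range, a log2 fold change of 0.33 and an adjusted p of 0.44 (limma). Dusp6 and Dusp4 had log2 fold changes of -0.09 and 0.20, neither of them called, and that of Dusp4 ranged from 0.10 to 0.35 when an array was left out. This comparison uses the same control arrays as the responses above.

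The responses of both genotypes were then compared by the interaction term, the log2 response of mutants minus that of heterozygous mice. It was negative and called for Dusp1, Dusp4, Dusp5 and Dusp6 and positive and called for Dusp7, compared with 2.12% of all probe sets lower and 1.47% higher. For Dusp1 the interaction was -2.15 (standard error 0.15, interval -2.48 to -1.81, adjusted p = 4.95e-06, limma), that is, a fold change 0.226 of that in heterozygous mice. For Dusp5 it was -1.72 (standard error 0.11, interval -1.96 to -1.48, adjusted p = 2.4e-06, limma), a fold change 0.304 of that in heterozygous mice. Dusp4 and Dusp6 had interactions of about the same size, -1.06 (interval -1.42 to -0.70, adjusted p = 0.00304, limma) and -1.05 (interval -1.36 to -0.74, adjusted p = 0.0012, limma). At the study's limits, Dusp1 and Dusp5 were lower (0.376% of all probe sets) and 0 members higher (0.0299%). By class, 3 of 4 nuclear genes were called lower (median -1.39), whereas the cytoplasmic ERK class had Dusp6 lower and Dusp7 higher (median 0.12), and 0 of 3 JNK/p38 genes were called (median -0.14), compared with a median of 0.02 over all probe sets.

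Dusp5 had a log2 fold change of 0.67 in mutants with pilocarpine and 2.39 in heterozygous mice with SE. Dusp6 had 1.11 in mutants with pilocarpine and 2.16 in heterozygous mice with SE. Whether responses differed between genes was not tested. The Dusp7 interaction of 0.26 (standard error 0.066, adjusted p = 0.0499, limma) was at the threshold and lost its call when any array other than the second mutant control was left out (adjusted p up to 0.124). Dusp16 had an interaction of -0.28 (interval -0.46 to -0.11) that did not pass (adjusted p = 0.0796, limma), but passed without the second mutant with pilocarpine (-0.33, adjusted p = 0.0465). Since the heterozygous mice had SE and the mutants had none, the part of genotype and that of SE in these differences cannot be told apart. The study also ran arrays on mutants that reached SE, which were not analysed here. It reports weaker induction of nearly all its top-regulated genes in them than in heterozygous mice with SE. It further used quantitative PCR in mice of both genotypes that reached SE. By that method it reports Dusp1 induction as independent of SRF, unlike in its array data. Dusp5 and Dusp6 rose less in those mutants than in heterozygous mice.

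**Figure D3:**
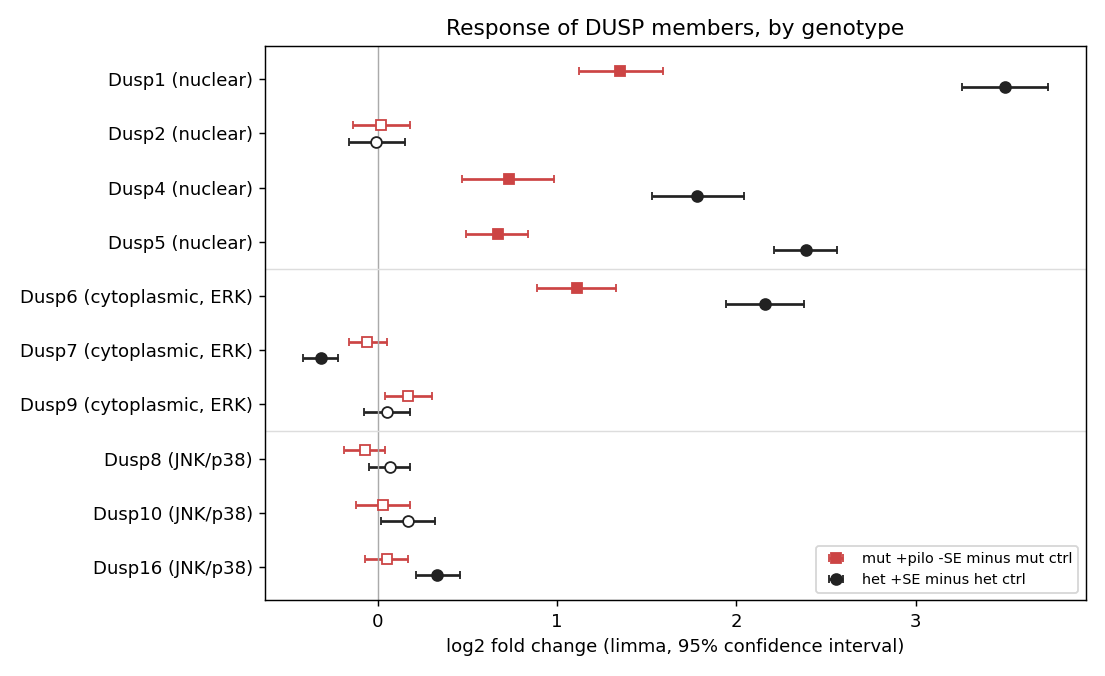
Log2 fold change (x axis) of the 10 genes in mutants with pilocarpine against mutant controls (squares) and in heterozygous mice with SE against heterozygous controls (circles), n = 3 arrays per group, with 95% confidence intervals from limma; filled symbols passed an adjusted p under 0.05. Dusp1, Dusp4, Dusp5 and Dusp6 responded in both genotypes, with lower values in mutants, and Dusp7 lies below 0 in heterozygous mice.

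The levels of both groups given pilocarpine were also compared directly. Dusp1, Dusp4, Dusp5, Dusp6 and Dusp16 were lower in mutants with pilocarpine than in heterozygous mice with SE and Dusp7 was higher, compared with 4.72% of all probe sets lower and 5.39% higher. Dusp1 averaged 11.42 ± 0.067 in mutants with pilocarpine and 13.24 ± 0.14 in heterozygous mice with SE (SD, n = 3 each), a log2 fold change of -1.81 (adjusted p = 4.8e-07, limma). Dusp5 averaged 9.74 ± 0.16 and Dusp6 11.55 ± 0.056 in mutants with pilocarpine, compared with 11.12 ± 0.055 for Dusp5 and 12.69 ± 0.017 for Dusp6 in heterozygous mice with SE. The log2 fold change was -1.38 for Dusp5 (adjusted p = 3.22e-07, limma) and -1.14 for Dusp6 (adjusted p = 1.72e-05, limma), followed by -0.86 for Dusp4 (adjusted p = 0.000504, limma) and -0.34 for Dusp16 (adjusted p = 0.00217, limma). Dusp7 was higher in the mutants by 0.29 (adjusted p = 0.00148, limma). Dusp8 was without overlap at 11.20, 11.17 and 11.28 in mutants with pilocarpine, against 11.37, 11.44 and 11.34 in heterozygous mice with SE, with a log2 fold change of -0.17 that did not pass (adjusted p = 0.0634, limma). It passed without the third mutant with pilocarpine (-0.20, adjusted p = 0.0486, limma) or the second heterozygous control (-0.17, adjusted p = 0.05, limma). Without overlap, 6 members lay below and 2 above, against 12.8% and 15.1% of all probe sets. At the study's limits, Dusp1, Dusp5 and Dusp6 were lower (0.384% of all probe sets) and 0 members higher (0.0256%). These values share their arrays with the responses above and are not separate evidence.

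Other genes of the MAP kinase pathway were counted over whole lists. The 14 atypical DUSPs lack the kinase-binding domain of MKPs. Of them, 1 was higher and 2 were lower in heterozygous mice with SE (median log2 fold change -0.07). For these and the following lists in SE, the share of all probe sets was 5.08% higher and 6.93% lower. The higher one was Dusp14 (0.59, standard error 0.066, adjusted p = 6.79e-05, limma), and the lower ones were Dusp22 (-0.55, standard error 0.057, adjusted p = 4.11e-05, limma) and Dusp18 (-0.40, standard error 0.073, adjusted p = 0.00287, limma). Of the 3 tyrosine phosphatases that dock to MAP kinases, Ptprr was higher (0.20, adjusted p = 0.0449, limma), while Ptpn5, the striatal-enriched phosphatase STEP, had -0.01. Among 8 of 10 MAP kinase genes measured, 0 were higher and 2 lower (median -0.12). Lower were Mapk7, which encodes ERK5 (log2 fold change -0.47, standard error 0.054, adjusted p = 0.000101, limma), and Mapk14, which encodes p38 alpha (-0.18, adjusted p = 0.0401, limma). Of 6 of 7 MAP kinase kinase genes measured, 0 were called (0 also at an unadjusted p under 0.05 in limma; median 0.04).

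In mutants with pilocarpine, 0 genes of these lists were called by limma, with 3 of 14 atypical DUSPs, 1 of 3 docking tyrosine phosphatases, 2 of 8 MAP kinases and 0 of 6 MAP kinase kinases at an unadjusted p under 0.05, compared with 3470 of all 23410 probe sets. The interaction was positive for Dusp18 (0.41, adjusted p = 0.0492, limma), Dusp22 (0.37, adjusted p = 0.0262, limma) and Mapk7 (0.37, adjusted p = 0.0195, limma). It was negative for Ptprr (-0.42, adjusted p = 0.0137, limma). Of all probe sets, 1.47% were called higher and 2.12% lower in the interaction. As a scale for the MKP genes, 13 of 13 immediate early genes (such as Fos, Egr1 and Arc) were higher in heterozygous mice with SE, with log2 fold changes of 1.44 to 5.76 and a median of 3.42. In mutants with pilocarpine, 11 of 13 were higher (median 0.69), and the interaction was negative for 13 of 13 (median -2.12).

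**Figure D4:**
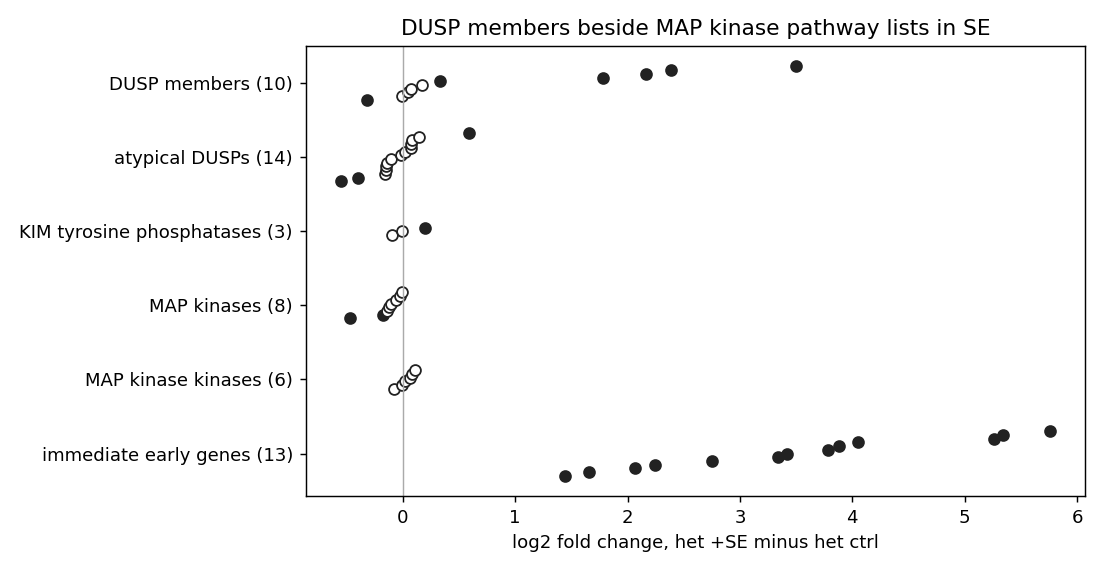
Log2 fold changes (x axis) in heterozygous mice with SE against heterozygous controls, n = 3 arrays per group, for the MKP genes and 5 gene lists with the number of genes measured; each point is a gene, and filled points passed an adjusted p under 0.05 (limma). Apart from 4 MKP genes with 1.78 to 3.50, the phosphatase and kinase genes lie between -0.55 and 0.59, and the immediate early genes between 1.44 and 5.76.

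Finally, profiles over the 12 arrays, each gene set relative to its mean in heterozygous controls, were compared with those of 19937 other genes by the root mean square (RMS) difference. Dusp1 was closest to the nuclear receptor gene Nr4a1 (RMS 0.19 log2 units), the small GTPase gene Gem (0.20) and the stress gene Gadd45b (0.23). Nr4a1 had log2 fold changes of 1.25 in mutants with pilocarpine and 3.42 in heterozygous mice with SE. Dusp4 was closest to the clock gene Per1 (0.12), followed by Gpr3 and Irs2 (0.15 each). Dusp5 lay near Nr4a3 (0.15), Fosl2 (0.16) and the kinase gene Sik1 (0.21). Dusp6 lay near the synaptic pentraxin gene Nptx2 (0.12), and then near Nr4a3 (0.17) and Fosl2 (0.23). Nptx2 had log2 fold changes of 1.06 in mutants with pilocarpine and 2.16 in heterozygous mice with SE, against 1.11 and 2.16 for Dusp6. Genes were ranked on the arrays that show the responses, so their likeness is a description of these 12 mice.

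Markers of hippocampal cell types were compared for the same arrays. In heterozygous mice with SE, 0 of 3 neuronal, 0 of 2 granule cell, 0 of 4 astrocyte, 0 of 3 oligodendrocyte and 0 of 4 choroid plexus markers were called by limma (0 also at an unadjusted p under 0.05), while 2 of 4 microglial markers were lower, Cx3cr1 by a log2 fold change of -0.19 and P2ry12 by -0.23. The mean level of the microglial markers was 8.35 to 8.41 with SE and 8.48 to 8.53 in heterozygous controls. Of all 23410 probe sets, 5580 had an unadjusted p under 0.05 in SE, and 5.08% were called higher and 6.93% lower (limma). Among the choroid plexus markers, Ttr had -0.57 (standard error 0.52) and Kcnj13 -0.29 (standard error 0.5) in SE, so shifts of such size may be missed. In mutants with pilocarpine, 0 of the markers of any cell type were called by limma, with 3 of 4 microglial, 2 of 3 oligodendrocyte, 2 of 2 precursor, 1 of 4 astrocyte and 1 of 4 endothelial markers at an unadjusted p under 0.05, compared with 3470 of all 23410 probe sets. Cspg4, a marker of oligodendrocyte precursors, was higher in heterozygous mice with SE by 0.31 (1 of 2 such markers), and the endothelial marker Tek fell by 0.45 on the log2 scale (1 of 4). These shifts are near the size of the Dusp7 and Dusp16 changes and below those of Dusp1, Dusp4, Dusp5 and Dusp6, and their part in the results was not tested. In whole tissue, fewer cells of a type and less RNA per cell cannot be told apart.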

How the data were processed

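Hippocampal RNA of 12 mice, 1 Affymetrix Mouse Gene ST array per mouse, was analyzed. The authors scanned the arrays, processed them in Affymetrix Expression Console by robust multiarray average (RMA) and deposited log2 values, which include background correction, quantile normalization and summary of probes to probe sets. Versions are not given in the sources used here. Of 35556 probe sets, 23410 have a gene in the platform annotation (21789 with 1 gene, 1621 with several) and were tested. Genes are named from probe sets with 1 gene, using the one with the highest mean.

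limma 3.58.1 in R 4.3.3 (lmFit, eBayes) was fitted to the 4 group means without a block, and p-values were adjusted by Benjamini-Hochberg over all 23410 probe sets. A call is an adjusted p under 0.05. The stricter limits of the study combine an adjusted p under 0.001 with a change of at least 2-fold. Named are all members, Srf, up to 3 called genes per list with the largest change, and the 3 genes most like each member called in SE; Ptpn5, Dusp8's second probe set, the cell markers and examples of the immediate early list are named beyond this. Members, classes and lists were chosen with earlier results of these data known. Array medians were 6.78 to 6.86, and 3 arrays per group limit the precision. No 2 arrays of the same group were duplicates (SD of their difference 0.116 to 0.163 log2 units). The fit was tested on simulated data. Alternatives covered scaling, prior variance, dim probe sets, probe sets tested and per gene, arrays in the fit, array weights, Xist as covariate, a block by animal number, stricter limits and leaving out each array. Promoter windows are from RefSeq (GRCm38.p6), read with Python.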

Additional observations from a re-analysis of the deposited data

Results flagged for a closer look

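The response of 5 members differed between genotypes by the interaction term in limma (mutants with pilocarpine against their controls, minus heterozygous mice with SE against theirs, n = 3 arrays per group). The difference was -2.15 for Dusp1, -1.72 for Dusp5, -1.06 for Dusp4 and -1.05 for Dusp6. These calls held under every alternative run with an adjusted p limit of 0.05. The alternative fitted to only the compared groups equals the main fit for the interaction, which uses all groups, and so could not change these calls. For Dusp7 the difference was 0.26, at an adjusted p of 0.0499 (limma) that was between 0.0522 and 0.124 in 15 alternatives. The second Dusp8 probe set had an interaction of -0.32 (adjusted p = 0.0907, limma), against -0.14 for the first. Genotype and SE cannot be told apart in these differences.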

How the results depend on the processing

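The calls of Dusp1, Dusp4, Dusp5 and Dusp6 in both responses, in the interaction and between both pilocarpine groups held under every alternative with the limit of 0.05. The highest adjusted p was 0.043, for Dusp4 in mutants (limma). For the interaction, the fit to only the compared groups is the main fit and no separate check. Of 50 values of a member in a comparison, 40 kept their direction and call throughout. At the study's limits, members higher numbered 2 in place of 4 in mutants with pilocarpine, members lower numbered 0 in place of 1 in heterozygous SE, the interaction gave 0 higher in place of 1 and 2 lower in place of 4, and the pilocarpine groups gave 0 higher in place of 1 and 3 lower in place of 5. The Dusp7 interaction, the call counted as higher, was lost (0 in place of 1) with median centring (0.25), quantile normalization (0.27), all probe sets (0.26) and the animal number as a block (0.26, adjusted p = 0.0935, limma), and leaving out an array gave 0 to 1. Animal numbers did not pair the arrays: r of deviations was -0.31 to 0.32 over 18 same-numbered pairs, with 3 of 12 arrays closest to their own number, and the block changed no other call. The Dusp16 interaction passed with array weights (-0.32, adjusted p = 0.0487, limma), and Dusp8 between the pilocarpine groups passed in 7 alternatives (adjusted p 0.0354 to 0.05, limma). Signs of uncalled values near 0 turned: Dusp2 in SE was 0.02 with median centring, 0.01 with quantile normalization, 0.01 with array weights, 0.00 with Xist as covariate and -0.06 to 0.04 leaving out an array. Leaving out an array, Dusp2 ranged from -0.03 to 0.10 in mutants, -0.02 to 0.11 in the interaction and -0.10 to 0.04 between the pilocarpine groups, Dusp10 from -0.02 to 0.11 in mutants, and at rest Dusp6 from -0.18 to 0.04 and Dusp8 from -0.08 to 0.01 (0.06 with the mean of its probe sets). The causes were not tested. Dusp2 gave no value among bright probe sets only. Dusp2 is dim, and changes near the size of the spread between 3 arrays may be missed.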

Other observations

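The 2 members with small called changes in SE were compared with other genes by their profile over the 12 arrays. Dusp7 was nearest to Rnf113a1 and Dedd (RMS 0.04 log2 units each) and Taf1c (0.05), with log2 fold changes of -0.33 to -0.32 in heterozygous mice with SE. Dusp16 was nearest to Wwtr1, a Hippo pathway coactivator gene, Lpp and Pcdh9 (0.07 each), with 0.25 to 0.29. These genes were selected for likeness on the same arrays, so their similar fold changes follow from the selection.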
